A study of Caenorhabditis elegans with 2 samples.

Results

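The genes described are the cytosolic ribosomal protein genes of the nematode Caenorhabditis elegans, taken as all protein-coding genes whose symbols begin with rpl- (large subunit) or rps- (small subunit). In the Ensembl annotation of the WBcel235 assembly, which is ce11, 78 of 19973 protein-coding genes met the rule, 47 for the large subunit and 31 for the small subunit. They lay on all 6 nuclear chromosomes, with 23 on chromosome I, 10 on II, 18 on III, 17 on IV, 8 on V and 2 on X.

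The assay was chromatin immunoprecipitation with sequencing (ChIP-seq), which lists the genomic regions that come down with a tagged protein. The worms were of strain OP640 (unc-119(tm4063) III; wgIs640), a transgenic line carrying TRA-4 with GFP and FLAG at its C-terminus, and the antibody was raised against GFP. Early embryos of pooled males and females were collected by bleaching, in 2 biological replicates of a single group with no other condition, and whole embryos mix all cell types. The deposited lists were a relaxed list per replicate, which holds background as well as enriched regions (19062 regions in replicate 1 and 13957 in replicate 2), a relaxed list of 9660 regions from the pooled replicates, and 394 regions that passed the irreproducible discovery rate (IDR), a filter on how well regions rank alike in replicates. Every region carries a summit, the position of its highest signal, and a signal value of the authors' peak caller, which was used only to rank regions within a list (rank 1 is the strongest). Each of the 394 IDR regions had the same rank and signal as in the pooled list, so they are its 394 strongest regions. A place among them does not by itself mean a high rank in both replicates. Sequencing depth is unknown.

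Ribosomes translate mRNA into protein. The large subunit joins amino acids and the small subunit reads the message, and each is built from ribosomal RNA and many small proteins that are needed in equal amounts. Their genes are among the most strongly and evenly expressed of an animal cell, tend to be short, and in nematodes often carry in their introns the genes of small nucleolar RNAs (snoRNAs), which guide the chemical modification of ribosomal RNA. TRA-4 is a zinc finger protein of the sex determination pathway, known to promote female development as a repressor of transcription.

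Of the 78 ribosomal protein genes, 10 had an IDR summit within 500 bp of the start, and all 10 summits lay upstream. The DNA around 7 of them, 50 bases to each side of the summit and read 5′ to 3′ along the ribosomal protein gene, is given because later comparisons of position and sequence turn on it, together with the window of rps-1, the strongest of these genes outside the IDR set. The bases come from the RefSeq genome of WBcel235. The windows of the large subunit genes lie at chrIII:3867536-3867636 on the plus strand for rpl-3, chrIV:654873-654973 on the minus strand for rpl-15, chrIV:4750014-4750114 on the minus strand for rpl-20 and chrIII:7854687-7854787 on the plus strand for rpl-35. Those of the small subunit genes, all on the plus strand, lie at chrIV:1659196-1659296 for rps-28, chrIV:11602116-11602216 for rps-11, chrIII:1950398-1950498 for rps-22 and chrIII:4475605-4475705 for rps-1. Capitals mark matches on either strand to short sequences. TACGGT is marked in 4 windows. AGTGTA is marked in 5, and where it lies on the other strand the window shows TACACT instead. In 3 windows CGTTGA is marked, shown as TCAACG where it lies on the other strand. These 3 sequences were picked after the windows were seen. The rps-1 window also has GAGAGA in capitals (TCTCTC on the other strand), and the rpl-15 window has TTGGCA, both from a list of 8 sequences used on these data before. All were searched on both strands.
rpl-3: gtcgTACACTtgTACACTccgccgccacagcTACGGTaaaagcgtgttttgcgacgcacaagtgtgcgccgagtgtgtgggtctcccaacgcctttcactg
rpl-15: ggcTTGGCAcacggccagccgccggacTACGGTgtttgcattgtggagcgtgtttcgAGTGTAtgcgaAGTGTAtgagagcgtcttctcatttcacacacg
rpl-20: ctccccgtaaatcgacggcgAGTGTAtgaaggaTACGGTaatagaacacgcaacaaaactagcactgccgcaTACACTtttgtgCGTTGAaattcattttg
rpl-35: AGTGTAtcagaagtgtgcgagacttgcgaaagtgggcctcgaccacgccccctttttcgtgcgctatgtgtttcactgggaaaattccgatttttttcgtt
rps-28: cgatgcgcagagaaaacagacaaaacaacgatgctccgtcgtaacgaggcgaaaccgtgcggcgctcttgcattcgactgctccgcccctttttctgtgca
rps-11: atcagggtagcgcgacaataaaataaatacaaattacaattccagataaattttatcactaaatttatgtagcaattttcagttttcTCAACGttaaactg
rps-22: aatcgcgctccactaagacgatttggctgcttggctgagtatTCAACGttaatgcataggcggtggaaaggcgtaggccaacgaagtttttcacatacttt
rps-1: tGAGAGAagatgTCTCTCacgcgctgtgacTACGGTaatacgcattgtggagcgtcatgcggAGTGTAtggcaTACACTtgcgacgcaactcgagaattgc

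The 10 genes with an IDR summit were 12.8% of the ribosomal protein genes (exact 95% interval 6.32 to 22.3, counting error only), against 0.981% of all protein-coding genes. By pooled rank they were rpl-3, rpl-15, rpl-20, rps-26, rps-28, rps-19, rpl-24.2, rpl-35, rps-11 and rps-22, so that 5 encode large and 5 small subunit proteins. Their median rank was 144 of 394 and their median signal 151.9, against a median rank of 223.5 and a median signal of 127.9 over the 196 protein-coding genes with an IDR summit. The full set ran from a signal of 101.6 to 610.9.

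The strongest region belonged to rpl-3, whose product lines the peptidyl transferase centre of the large subunit. It spanned 3867346 to 3867825 on chromosome III, with its summit at -268 bp, that is, upstream of the start, and ranked 18 of the pooled list, 27 in replicate 1 and 15 in replicate 2. Its signal values were 305.1 in the pooled list, 112.3 in replicate 1 and 192.8 in replicate 2. No other protein-coding start lay closer than 3097 bp to this summit, and the rank was high in both replicates. rpl-15, a core protein of the large subunit, had its region at 654683 to 655162 on chromosome IV and ranked 81 in the pooled list, 46 in replicate 1 and 112 in replicate 2. It was the single gene of the 10 with a better rank in replicate 1, and the single snoRNA host among them. The region of rpl-20 spanned 4749824 to 4750303 on chromosome IV and ranked 102 in the pooled list, 182 in replicate 1 and 82 in replicate 2. Its summit was at -286 bp from rpl-20 and 176 bp from the start of Y17G9B.5 on the other strand.

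The remaining large subunit genes of the set were weaker. rpl-24.2, which counts as large subunit by its symbol though its human relative is known as a ribosome assembly factor, had a region within an intron of the neighbouring gene C03D6.1, with the summit at -152 bp, and it ranked 228 in the pooled list, 623 in replicate 1 and 180 in replicate 2. It is the only one of the 10 whose summit was not intergenic. rpl-35, which encodes a protein near the exit of the peptide tunnel, had its region at 7854497 to 7854976 on chromosome III and ranked 230 in the pooled list, 5058 in replicate 1 and 140 in replicate 2. Its signal was 23.84 in replicate 1 and 99.49 in replicate 2, the widest gap in rank between the replicates among the 10.

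Among small subunit genes the strongest region was that of rps-26, whose product sits where the message leaves the ribosome. It ranked 130 in the pooled list, 215 in replicate 1 and 118 in replicate 2, with the summit at -403 bp. This summit lay 54 bp from the start of the divergent gene tmem-107 and 115 bp from the snoRNA gene F39B2.14. All 3 starts are thus within 500 bp of the summit, though the rps-26 start lies outside the region itself. The starts of rpl-3, rpl-15, rpl-20, rps-28, rpl-35 and rps-11 likewise lie outside their regions. The region of rps-28 spanned 1659006 to 1659485 on chromosome IV and ranked 137 in the pooled list, 2033 in replicate 1 and 132 in replicate 2. rps-19, whose human counterpart is mutated in Diamond-Blackfan anaemia, ranked 151 in the pooled list, 1523 in replicate 1 and 93 in replicate 2. Its summit at -235 bp was slightly nearer the divergent start of hsr-9, at 210 bp.

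rps-11 had the most distant summit, at -475 bp in a region at 11601926 to 11602405 on chromosome IV, and ranked 231 in the pooled list, 683 in replicate 1 and 343 in replicate 2. rps-22 had the closest, at -87 bp in a region at 1950208 to 1950687 on chromosome III, and ranked 381 in the pooled list, 4198 in replicate 1 and 228 in replicate 2. The divergent start of polh-1, which encodes a DNA polymerase that copies past lesions, lay 179 bp from that summit. In all, 9 of the 10 summits were intergenic, 7 were nearest the ribosomal protein gene's own start and 3 were nearer a neighbour's.

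**Figure D1:**
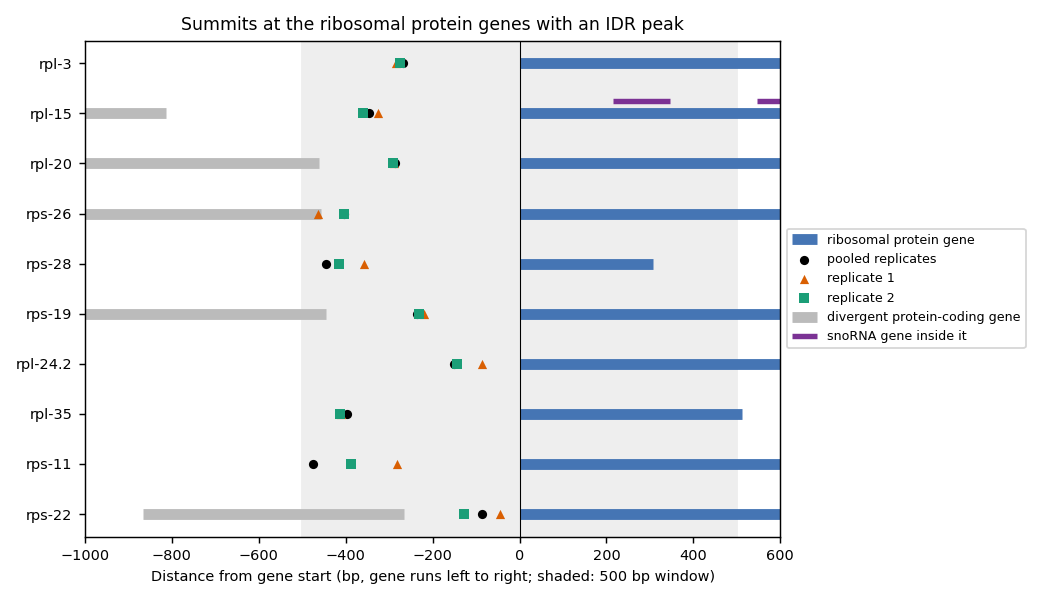
Summits at the 10 ribosomal protein genes with an IDR summit, in order of pooled rank, as distance from the gene start in bp (negative is upstream) in the pooled list (circles), replicate 1 (triangles) and replicate 2 (squares). Every pooled summit lies upstream, between -475 and -87 bp, grey bars mark the 5 divergent protein-coding neighbours, blue bars the ribosomal protein genes, purple bars the snoRNA genes inside rpl-15, and shading the 500 bp on each side of the start.

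The replicates differed in how strongly they ranked these genes. The median rank of the 10 was 653 in replicate 1 and 125 in replicate 2, against 256 in replicate 1 and 217 in replicate 2 over the 196 genes with an IDR summit. Replicate 2 gave the better rank for 9 of the 10 (90.0%) and for 115 of the 196 (58.7%). In replicate 1, 4 of the 10 ranked beyond 1000, against 14.8% of the 196, while in replicate 2 none of the 10 did, against 3.57%. These 4 were rps-28, rps-19, rps-22 and rpl-35. When as many of the strongest regions of a single replicate were taken as the IDR set holds, replicate 2 alone gave the same 10 genes, beside 0.981% of all protein-coding genes. Replicate 1 alone gave 5, beside 0.796% of all protein-coding genes, namely rpl-3, rpl-15, rpl-20 and rps-26 together with rps-13, which ranked 383 there and 3498 in replicate 2. So 6 of the 10 were at the strongest 394 regions of replicate 2 and not at those of replicate 1. With 2 replicates this difference has no test.

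The next ribosomal protein genes fell below the lowest signal of the IDR set. rps-22, the weakest inside, had a pooled signal of 102.8, and rps-1, the strongest outside, had 92.54 at rank 526, with ranks of 695 in replicate 1 and 725 in replicate 2. With all pooled regions of a q-value under 0.05, the count was 11 genes, rps-1 being the one gained, against 1.27% of all protein-coding genes. It was followed by rpl-12, which encodes a protein at the base of the ribosomal stalk, at rank 547 in the pooled list, 1825 in replicate 1 and 434 in replicate 2. rpl-12 shares its upstream region with lin-54, a subunit of the DREAM repressor complex, whose divergent start lies 393 bp away. rpl-7A ranked 617 in the pooled list and 925 in each replicate. rps-24 ranked 673 in the pooled list, 2824 in replicate 1 and 762 in replicate 2. rps-20 ranked 722 in the pooled list, 1502 in replicate 1 and 914 in replicate 2, so that neither replicate placed any of these 5 within its strongest 394 regions.

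The relaxed lists reached most of the ribosomal protein genes. A relaxed pooled summit lay within 500 bp of 44 of the 78 starts (56.4%, 44.7 to 67.6), against 12.3% of all protein-coding genes, and these 44 genes were served by 43 distinct summits. Replicate 1 had a summit at 52 genes (66.7%, 55.1 to 76.9), against 21.0% of all, and replicate 2 at 39 of the 78 (38.5 to 61.5% by the exact interval), against 16.0% of all. Both replicates had one at 34 genes (43.6%), against 8.93% of all, while 18 genes had one in replicate 1 and not in replicate 2, and 5 in replicate 2 and not in replicate 1. At least 1 of the 3 relaxed lists had a summit at 58 genes (74.4%), against 28.3% of all, which left 20 ribosomal protein genes with none. Since the relaxed lists include background by design, a summit in them is not by itself an enriched site. Over the 34 genes in both replicate lists, the ranks had a Spearman's rho of 0.72, and over all 1783 protein-coding genes in both lists rho was 0.49; these are descriptions across genes of the same 2 libraries.

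**Figure D2:**
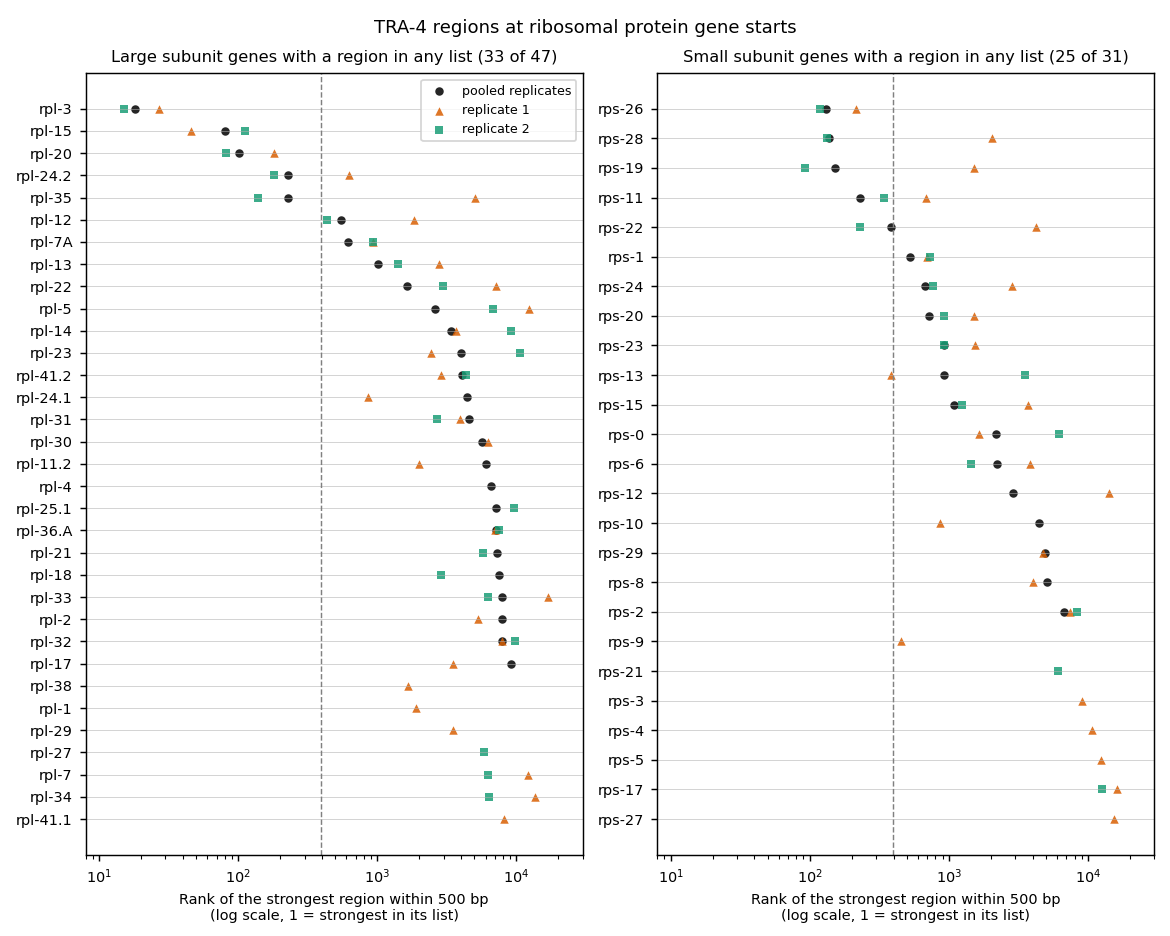
Rank of the strongest region within 500 bp of each ribosomal protein gene that has one in any relaxed list, for 33 large subunit genes (left) and 25 small subunit genes (right), on a log scale where 1 is the strongest. Circles are the pooled list, triangles replicate 1 and squares replicate 2, the dashed line marks rank 394, and 10 genes have a circle to the left of it.

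Both subunits were represented at similar shares in the IDR set and the relaxed pooled list. An IDR summit lay at 5 of 47 large subunit genes (10.6%, 3.55 to 23.1) and at 5 of 31 small subunit genes (16.1%, 5.45 to 33.7). A relaxed pooled summit lay at 26 of 47 large subunit genes (55.3%, 40.1 to 69.8) and at 18 of 31 small subunit genes (58.1%, 39.1 to 75.5). Replicate 1 had a summit at 59.6% of large subunit genes (44.3 to 73.6) and at 77.4% of small subunit genes (58.9 to 90.4). Replicate 2 had one at 48.9% of large subunit genes and at 51.6% of small subunit genes. The intervals overlapped in each of these lists, and the differences were not tested. Without replicate 2, the strongest regions of replicate 1 lay at 3 of 47 large subunit genes (6.38%) and 2 of 31 small subunit genes (6.45%), against 0.796% of all protein-coding genes. Among genes with a pooled summit, the median rank was 4251 for the large subunit and 922.5 for the small subunit, although the strongest 3 genes were all of the large subunit.

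Ribosomal protein genes often begin close to a gene that runs the other way. A divergent protein-coding start lay within 1000 bp upstream of 47 of the 78 (60.3%), against 17.7% of all protein-coding genes, and the median gap to the next gene upstream was 571 bp, against 1157 bp. With such a neighbour, 5 of 47 ribosomal protein genes had an IDR summit (10.6%, 3.55 to 23.1), against 2.63% of all divergent protein-coding genes. Without one, 5 of 31 had an IDR summit (16.1%, 5.45 to 33.7), against 0.627% of all non-divergent protein-coding genes. Within the ribosomal protein genes these intervals overlap, and the difference between genes with and without such a neighbour was not tested. Their order also turned without replicate 2, where the strongest regions of replicate 1 lay at 4 of 47 divergent genes (8.51%) and at 1 of 31 non-divergent genes (3.23%), against 0.796% of all protein-coding genes. In the relaxed pooled list a summit lay at 28 of 47 divergent ribosomal protein genes (59.6%), against 19.4% of all divergent genes, and at 16 of 31 non-divergent ones (51.6%), against 10.7% of all non-divergent genes. The 5 divergent genes with an IDR summit were rpl-15, rpl-20, rps-26, rps-19 and rps-22, and for rpl-20, rps-26 and rps-19 the neighbour's start was the nearer of the pair. In 3 pairs, ribosomal protein genes stand head to head with each other. rps-10 and rpl-24.1, with starts 610 bp apart, shared a relaxed summit of rank 4444 that lay at -110 bp from rps-10, while rps-14 with rpl-36 and rpl-39 with rps-30 had no pooled summit within 500 bp of either start.

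**Figure D3:**
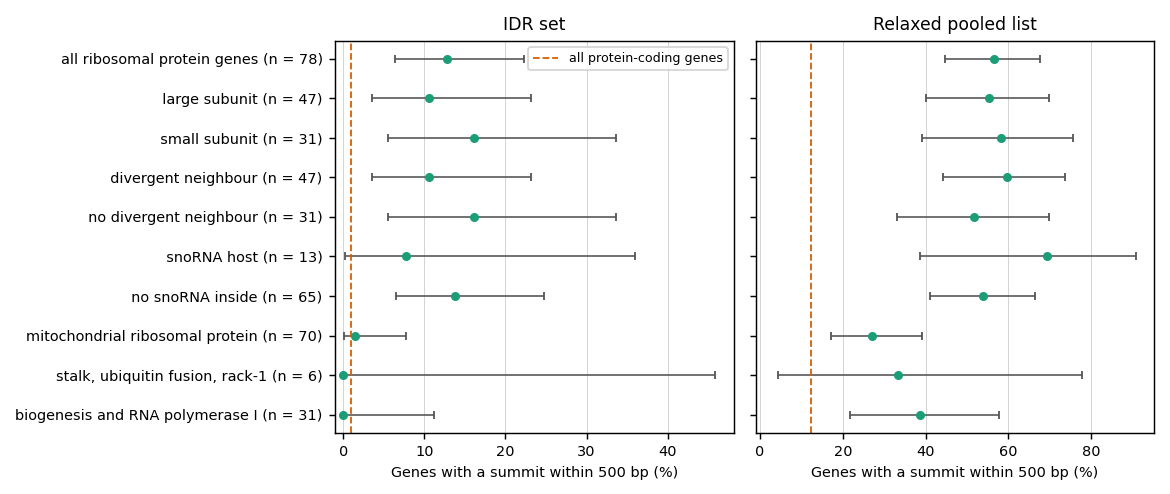
Percent of genes with a summit within 500 bp of the start in the IDR set (left) and the relaxed pooled list (right), for the ribosomal protein genes, their subgroups and 3 comparison lists, with exact 95% intervals. The dashed lines mark all protein-coding genes at 0.981% and 12.3%, and all 78 ribosomal protein genes stand at 12.8% and 56.4%.

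A snoRNA gene lay inside 13 of the 78 ribosomal protein genes (16.7%), against 0.796% of all protein-coding genes. The hosts were rpl-2, rpl-4, rpl-6, rpl-7, rpl-7A, rpl-15, rpl-24.1, rpl-26, rps-4, rps-12, rps-13, rps-23 and rps-29, with 19 snoRNA genes between them. An IDR summit lay at 1 of the 13 hosts (7.69%, 0.195 to 36), against 3.14% of all snoRNA host genes, and at 9 of the 65 other ribosomal protein genes (13.8%, 6.53 to 24.7), against 0.964% of all genes that host none. Without replicate 2 the order turned, with 2 of 13 hosts (15.4%) and 3 of 65 others (4.62%) at the strongest regions of replicate 1, against 0.796% of all protein-coding genes. In the relaxed pooled list a summit lay at 9 of 13 hosts (69.2%, 38.6 to 90.9), against 31.4% of all hosts, and at 35 of 65 others (53.8%, 41.0 to 66.3), against 12.1% of all others. After rpl-15, the strongest hosts were rpl-7A at rank 617, rps-23 at rank 919 and rps-13 at rank 926, and none reached the IDR set. rps-12, rps-29, rpl-4 and rpl-2 followed at ranks 2903, 4877, 6572 and 7883, rpl-24.1 stood at 4444, rpl-7 had a summit in both replicate lists and rps-4 in that of replicate 1, neither with one in the pooled list, and rpl-6 and rpl-26 had none.

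The snoRNAs inside these genes were not themselves at IDR summits. None of the 19 had one within 500 bp of its own start, which allows a share of up to 17.6%, against 54 of the 327 other snoRNA genes (16.5%, 12.7 to 21.0). In the relaxed pooled list 7 of the 19 had a summit (36.8%), against 117 of the 327 others (35.8%). At rpl-15 the IDR summit upstream of the gene lay 562 bp from the nearer of its snoRNAs, K11H12.13. A second, relaxed summit of rank 726 lay inside rpl-15, 261 bp past the start of its other snoRNA, K11H12.12. Only rps-26 among the 10 genes had a small RNA start within 500 bp of its summit, and leaving out summits near such starts left 9 genes, against 0.791% of all protein-coding genes by the same count.

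Genes that share a number in their symbols differed in their regions. rpl-24.2 was in the IDR set, whereas rpl-24.1 had within 500 bp only the summit it shares with rps-10, with rank 864 in replicate 1 and no region in replicate 2. rpl-11.1 and rpl-11.2 encode a protein that binds 5S ribosomal RNA. rpl-11.2 had a pooled summit of rank 6038 and a replicate 1 summit of rank 2009, and rpl-11.1 had none in any list. rpl-25.1 had a pooled summit of rank 7107 and rpl-25.2 none in any list. rpl-41.2 had summits of rank 4058 in the pooled list, 2866 in replicate 1 and 4353 in replicate 2, and rpl-41.1 had 1 of rank 8190 in replicate 1 alone. The labels do not say how reads that match more than 1 place in the genome were counted.

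By chromosome, IDR summits lay at 3 of 23 ribosomal protein genes on chromosome I, against 1.39% of all protein-coding genes there, at 3 of 18 on III, against 1.70%, and at 4 of 17 on IV, against 0.975%. They lay at 0 of 10 on II, against 1.04% of all protein-coding genes there, at 0 of 8 on V, against 0.541%, and at 0 of 2 on X, against 0.586%. A count of 0 allows a share of up to 30.8% on II, 36.9% on V and 84.2% on X. These numbers are too small to tell the chromosomes apart. On chromosome V, 1 of the 8 had a pooled summit, against 7.97% of all protein-coding genes there, 3 had a summit in replicate 1, against 15.3%, and 0 in replicate 2, against 11.0%.

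The summits of ribosomal protein genes lay far upstream, most of them beyond 200 bp from the start. All 10 IDR summits were upstream of the start, for which the exact interval reaches down to 69.2%, against 83.2% of all protein-coding genes with an IDR summit. Their median position was -316.5 bp with quartiles at -401.5 and -243.25 bp, against a median of -192 bp for all. Of the 44 genes with a relaxed pooled summit, 39 had it upstream (88.6%, 75.4 to 96.2), against 58.6% of all protein-coding genes with one, and the median was -263.5 bp, against -81 bp. In each replicate alone the direction was the same, with 86.5% upstream in replicate 1, against 55.8%, and 79.5% in replicate 2, against 56.6%. The stretch from -500 to -200 bp held 28 of the 44 summits (63.6%), against 32.6%. None of these differences in position was tested.

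Counted in steps of 100 bp, relaxed pooled summits at ribosomal protein genes were most frequent from -300 to -200 bp, with 14.1 per 100 genes, against 1.8 per 100 over all protein-coding genes. From +100 to +400 bp there were none, against 0.971 to 1.23 per 100 genes in each step over all. From +400 to +1000 bp there were 18 summits at 18 genes, of which 9 lay inside the ribosomal protein gene and 9 past its end. That is 23.1 per 100 genes, against 5.37 per 100 over all protein-coding genes in the same stretch, so summits were also more frequent there than over all genes. The ribosomal protein genes have a median length of 753 bp, against 2027 bp for all protein-coding genes. Of these 18, 8 lay within 500 bp of another protein-coding start, the strongest being an IDR summit of rank 238, which lies 692 bp past the rpl-27 start and 86 bp from the start of egl-30, a G protein gene.

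**Figure D4:**
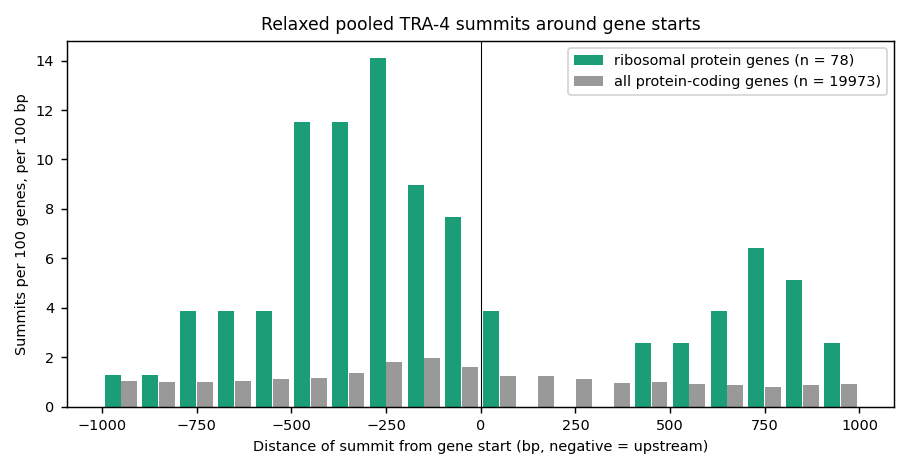
Relaxed pooled summits per 100 genes in steps of 100 bp from 1000 bp upstream to 1000 bp downstream of the start, for the 78 ribosomal protein genes (green) and all 19973 protein-coding genes (grey). The ribosomal protein genes reach 14.1 between -300 and -200 bp and 0 between +100 and +400 bp, where all genes have 0.971 to 1.23 per step. At those rates 78 genes would hold few summits, so the 0 does not set them apart.

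The 8 sequences used before were each in at most 1 of the 10 summit windows. GTTCGA, the core of the B box inside tRNA genes, was in 0 of the 10 windows of 101 bp, which allows up to 30.8%, against 20.1% of all 394 IDR windows. The window of rpl-24.2 held GAGAGA, present in 11.9% of all IDR windows, that of rps-19 held TTTCTTTT, present in 3.81%, and that of rpl-15 held TTGGCA, present in 7.11%. The other 4 of the 8 were in none of the windows, against 2.03 to 7.36% of all IDR windows. At 10 windows no difference from all IDR windows can be seen for any of the 8, GTTCGA included. Over the 500 bp upstream of the start, TTTCTTTT was present at 43.6% of ribosomal protein genes (32.4 to 55.3), against 23.7% of all protein-coding genes. CACGTG, the E-box, was present at 1.28% (0.0325 to 6.94), against 8.61%, and TTGGCA at 12.8% (6.32 to 22.3), against 25.3%. The intervals of the other 5 included the share over all protein-coding genes. TATAAA was present at 53.8% of ribosomal protein genes, against 54.0% of all, GAGAGA at 38.5%, against 30.0%, and CTGCGTCT at 6.41%, against 5.30%. GTTCGA stood at 17.9%, against 15.4%, and GGCGCG at 14.1% (7.26 to 23.8), against 7.61%. A match or its absence says nothing of which factor binds there.

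The 3 sequences chosen from the windows recur in them, and since they were chosen there the counts are a description. TACGGT lies in the windows of rpl-3, rpl-15 and rpl-20, 3 of 10, against 3.30% of all IDR windows. In these 3 genes it reads along the gene and begins at -19, -23 and -17 bases from the summit, and in rps-1, outside the IDR set, at -20 bases. The other 2 genes of the 10 with TACGGT upstream, rpl-24.2 and rps-11, carry it on the other strand, 113 and 168 bases past the summit. Outside the IDR set TACGGT also began near the summit in rps-20, at -13 bases. In others it was further away, such as -129 bases in rpl-17, -211 in rpl-30 and 258 in rpl-24.1. Over all ribosomal protein genes, 26 of 37 matches were on the other strand and 11 along the gene. AGTGTA lies in the windows of rpl-3, rpl-15, rpl-20 and rpl-35, 4 of 10, against 5.33% of all IDR windows, and rpl-3, rpl-15, rpl-20 and rps-1 each carry it in a pair. CGTTGA lies in the windows of rps-26, rps-22, rps-11 and rpl-20, 4 of 10, against 2.79% of all IDR windows. The rps-28 window holds none of the 11 sequences.

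Away from the IDR summits the 3 sequences differed in how often they occurred. TACGGT was present in the 500 bp upstream of 31 of the 68 ribosomal protein genes without an IDR summit (45.6%, 33.5 to 58.1), against 13.9% of all protein-coding genes and 15.7% of mitochondrial ribosomal protein genes. Leaving out rps-1 as well, whose window had been seen, it was upstream of 30 of 67 (44.8%, 32.6 to 57.4), among them 21 of 42 large subunit and 9 of 25 small subunit genes. The 31 matches at these genes lay between -400 and -200 bp in 22 cases (71.0%), against 41.9% of all matches upstream of protein-coding genes. Over all 78, an IDR summit lay at 5 of 36 ribosomal protein genes with TACGGT upstream (13.9%, 4.67 to 29.5) and at 5 of 42 without it (11.9%, 3.98 to 25.6). CGTTGA was upstream of 20 of the 68 (29.4%, 19 to 41.7), against 15.1% of all, and in 7 of the 33 distinct windows at relaxed pooled summits of ribosomal protein genes outside the IDR set (21.2%, 8.98 to 38.9), against 3.44% of all other relaxed windows. Some of these 33 windows had been seen when the sequence was chosen, and they and their genes were left in both counts. Neither count is therefore independent of the choice. The windows of rpl-7A and rps-24 hold CGTTGA, and these 2 genes are in both counts. Counted per gene, TACGGT was in a relaxed window outside the IDR set at 3 of 34 genes (8.82%, 1.86 to 23.7), against 3.22% of all other relaxed windows. AGTGTA was in one at 2 of 34 (5.88%, 0.72 to 19.7), against 3.21%. Both intervals include the share of the other windows, and rps-1 counts in both. AGTGTA was upstream of only 5 of the 68 (7.35%, 2.43 to 16.3), against 17.7% of all.

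Pairwise comparison of the 29 windows at pooled summits off chromosome I gave 406 pairs. The longest run of identical bases was 20, between rps-22 and rpl-32 in opposite orientation, and it includes the CGTTGA of both. The same 20 bases occur 4 times in the genome and lie within 500 bp upstream of 6 protein-coding genes. The next longest runs, 17 between rpl-32 and rps-0 and 16 between rps-0 and rps-22, overlap it. They occur 6 and 16 times in the genome and lie upstream of 7 and 12 protein-coding genes. The windows at the 10 IDR summits had a median GC content of 48.5%, ranging from 27.7% at rps-11 to 57.4% at rpl-3, against 49.5% for all IDR windows and 39.6% for the other relaxed windows. The 500 bp upstream of all ribosomal protein genes had a median of 33.7%, against 33.8% for all protein-coding genes.

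Genes of related function were counted in the same way, beside 0.981% of all protein-coding genes in the IDR set and 12.3% in the relaxed pooled list. The mitochondrial ribosomal proteins form the separate ribosome of that organelle, and 1 of their 70 genes had an IDR summit (1.43%, 0.0362 to 7.70), mrpl-50 at rank 300. Of these 70, 19 had a relaxed pooled summit (27.1%, 17.2 to 39.1). The 6 other genes of the cytosolic ribosome, rla-0, rla-1 and rla-2 of the stalk, the ubiquitin fusions ubl-1 and ubq-2, and rack-1, had 0 IDR summits, which allows up to 45.9%. Of these, ubq-2 and rla-2 had relaxed summits of rank 2154 and 2934. The 31 matched genes of ribosome biogenesis and RNA polymerase I had 0 IDR summits, which allows up to 11%, and 12 relaxed pooled summits (38.7%, 21.8 to 57.8), led by pro-1 at rank 685 and fib-1, the fibrillarin gene, at rank 753. At the share of all protein-coding genes, lists of this size would hold few IDR summits or none. The IDR counts therefore do not set the lists apart from other genes. In the relaxed pooled list the intervals of the mitochondrial and the biogenesis genes lay above 12.3%. That of the 6 other ribosome genes (4.33 to 77.7%) included it. The interval of the ribosomal protein genes in the IDR set, 6.32 to 22.3%, overlaps those of all 3 lists. In the relaxed pooled list their interval, 44.7 to 67.6%, lies above that of the mitochondrial genes and overlaps those of the other lists. The differences were not tested.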

How the data were processed

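The peak lists were deposited by the authors in narrowPeak format for ce11. Each region carries a signal value of the authors' peak caller and the −log10 of a q-value, as deposited. Per the deposited file descriptions, the relaxed lists are peaks with background and were the input to IDR, and a control alignment, not analysed here, was among their sources. No source used here names the caller, the aligner, the IDR cutoff or the read depth. The lists in ce10 were not used.

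Summits were joined to gene starts of Ensembl release 115 with Python 3.11.15, pandas 2.3.3, numpy 2.4.6 and scipy 1.17.1, and figures were drawn with matplotlib 3.10.9. For each gene the strongest summit within 500 bp of the start was kept, so a summit between close starts counts for each. A divergent neighbour starts within 1000 bp upstream on the other strand without overlap, and a host holds a whole snoRNA gene on its strand. Intervals are exact (Clopper-Pearson) at 95% and cover counting error only. No test was run: there is 1 group of 2 replicates, and genes are not replicates. The joining of summits to starts was tested on simulated data. Alternatives were another list, distance, start, assignment and overlap, each replicate left out, and small RNA starts left out.

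Named were all genes with an IDR summit, the 5 strongest outside it, the 5 strongest of each replicate, all hosts and the 4 pairs of genes that share a number; other genes were named after their values were seen. The genes and lists were chosen with earlier results of these data known. The 3 sequences named as picked from the windows, and the alternatives without hosts and without symbols that carry a capital letter, were added after seeing the data. Of 34 symbols given for biogenesis and RNA polymerase I, 31 matched the annotation.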

Additional observations from a re-analysis of the deposited data

How the results depend on the processing

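Of 91 alternatives to 9 results, 66 left the value within the set limits (1.5 times for counts, 26.9 bp, the SD between replicates, for the median position) and 25 moved it. A change of sign, possible only for the median position because a count has no sign, occurred in 0. Without replicate 2 the order turned between divergent and non-divergent genes, and between hosts and others. With the stronger 197 IDR regions, the count of ribosomal protein genes with a summit fell to 6, against 10 with all (0.431% and 0.981% of all protein-coding genes), with 3 large subunit, 3 small subunit, 2 non-divergent and 5 non-host genes. Within 200 bp of the start it fell to 2 (0.441% of all genes), with 1 large subunit, 1 small subunit, 1 divergent, 1 non-divergent, 0 host and 2 non-host genes, and 15 genes had a relaxed summit, against 44 (5.78% and 12.3% of all genes). With each summit given to its nearest start only, 7 genes had one (0.806% of all genes), of which 3 were small subunit and 2 divergent genes, and the median position was -347 bp, against -316.5 bp. The median was -286 bp both with pooled regions of q under 0.05 and within 1000 bp. Leaving out 1 replicate gave 5 to 10 genes, 3 to 5 of the large and 2 to 5 of the small subunit, 4 to 5 divergent and 1 to 5 non-divergent, 1 to 2 hosts and 3 to 9 non-hosts, with medians of -326 to -288 bp; the low counts are those without replicate 2 (0.796% of all genes), except for hosts, where 2 is the count without replicate 2. The cause was not tested. Windows of 1000 bp added rpl-27. Counting every region that overlaps the 500 bp on either side of the start, rather than the summit, added it too. No paired analysis was possible because there is 1 group. Sequencing depth is unknown, so whether weak regions reflect few reads cannot be seen.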
